A study of Mus musculus with 24 samples.

Results

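The 10 genes described here belong to WNT signalling and were followed in cultured mouse chondrocytes: the ligand Wnt5a, the secreted antagonists Sfrp1, Sfrp2, Frzb, Wif1, Dkk2 and Dkk3, and the targets Axin2, Lef1 and Tcf7. They were taken by gene symbol from a table of 17094 genes, and all 10 were found. Primary chondrocytes were isolated from the cartilage of wild-type mice with collagenase II and grown either alone, called normal culture, or as co-culture with primary dermal fibroblasts from skin in a transwell chamber, where a porous membrane keeps the cell layers apart. IL-1β, an inflammatory cytokine that drives cartilage breakdown, was either left out or added at 10 ng/ml 24 h after the cells had attached, and the chondrocytes of the lower chamber were collected 36 h or 72 h later. These choices formed 8 groups with 3 libraries of poly(A)-enriched RNA each, 24 in all: normal culture or co-culture, untreated or with IL-1β, at 36 h or 72 h. All cells were wild-type, and the sources used here do not give the age, sex and strain of the mice or the medium of the co-culture. Whether the 3 libraries of a group stem from different cultures or mice is not stated in the labels, so the p-values speak only of the spread among these libraries, and that spread may be technical.

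WNT ligands are lipid-bearing secreted proteins that bind frizzled receptors, and many of them also engage the co-receptors LRP5 and LRP6 to stabilise β-catenin, which then switches on genes together with TCF and LEF transcription factors. Secreted antagonists act outside the cell: the SFRP family, which includes Frzb, and Wif1 bind the ligands themselves, whereas Dkk2 binds the LRP co-receptors, and Dkk3 is a divergent member of the dickkopf family. In cartilage, too much and too little β-catenin activity both harm the tissue, and Frzb was first described as a protein of cartilage.

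The level of a gene is given as FPKM, fragments scaled to gene length and to the mapped total of the library, a scale on which genes can be compared with each other. Differences are those of log2(FPKM + 1), where changes of genes near 0 come out too small, with the standard error of limma's moderated linear model and a p-value adjusted by the Benjamini-Hochberg method over all 12178 genes with at least 1 FPKM in at least 3 libraries. A gene was said to rise or fall where this adjusted p was under 0.05. Of the 10 genes, 9 passed the filter on low values, and Axin2 did not, since none of its 24 values reached 1 FPKM. Wif1 reached 1 FPKM in only 7 libraries, all of them untreated, so it passed the filter only through the groups where it was high, and its differences and its place in each count below describe these libraries without adding support. FPKM summed to between 438242 and 506621 per library, 11335 to 11607 genes reached 1 FPKM, and replicate libraries correlated at r = 0.994 to 0.999 across genes, which are not independent replicates. Read depth is unknown, so no counting error is given. All 15 chondrocyte markers were in the table and 13 passed the filter, with Col2a1, the main collagen of cartilage, at a mean of 302 FPKM in untreated normal culture at 36 h, while Matn1 and Snorc did not exceed 0.07 and 0.19 FPKM in any library.

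Sfrp2 and Dkk2 are shown first by their start regions, because these antagonists moved farthest in opposite directions at 36 h. Each sequence runs 5′ to 3′ on the strand of the gene, from 250 bases before the start of transcription to 50 bases after it, as given by RefSeq for GRCm38.p6, and capitals mark the match to a motif. The start of Axin2, a classical β-catenin target, is given for comparison, and it held no match to any motif searched.
Sfrp2, chr3:83766071-83766370, plus strand: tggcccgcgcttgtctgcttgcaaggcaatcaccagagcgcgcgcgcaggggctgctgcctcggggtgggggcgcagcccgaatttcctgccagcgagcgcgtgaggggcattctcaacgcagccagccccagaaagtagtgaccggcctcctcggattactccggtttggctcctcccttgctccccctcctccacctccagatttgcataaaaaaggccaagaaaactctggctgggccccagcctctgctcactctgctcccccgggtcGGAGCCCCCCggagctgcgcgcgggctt
Dkk2, chr3:132085042-132085341, plus strand: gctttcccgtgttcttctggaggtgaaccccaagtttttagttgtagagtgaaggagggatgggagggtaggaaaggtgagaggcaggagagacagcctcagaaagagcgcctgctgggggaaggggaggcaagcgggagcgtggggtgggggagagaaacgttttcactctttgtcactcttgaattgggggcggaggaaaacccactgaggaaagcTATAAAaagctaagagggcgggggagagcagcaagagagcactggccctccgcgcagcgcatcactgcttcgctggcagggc
Axin2, chr11:108920099-108920398, plus strand: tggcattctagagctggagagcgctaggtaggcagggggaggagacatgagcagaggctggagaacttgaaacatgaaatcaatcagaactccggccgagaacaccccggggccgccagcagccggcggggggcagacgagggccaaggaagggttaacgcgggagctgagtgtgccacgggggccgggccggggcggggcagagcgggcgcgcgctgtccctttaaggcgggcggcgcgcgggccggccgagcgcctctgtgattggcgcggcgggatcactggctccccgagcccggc
Promoters of 7 of the 10 genes were matched by symbol, and Sfrp1, Dkk3 and Wnt5a were not. Both strands were searched for the TCF/LEF cores CTTTGAT and CTTTGTT, which 3.73% and 5.85% of 32851 promoters of this length held, for the NF-kB consensus, held by 8.46%, and for TATAAA, held by 13.6%. None of the 7 genes held either TCF/LEF core in these windows, start sites of Lef1 and Tcf7 included. Sfrp2 held an NF-kB consensus match on the minus strand that begins at base 23 of the transcript, and Dkk2 held TATAAA 32 bases before its start. TATAAA was also found on the minus strand near Wif1 and near 1 start site each of Lef1 and Tcf7. These matches describe letters only and do not show a binding site. The GC content of the windows was 66% for Sfrp2, 57.7% for Dkk2 and 70% for Axin2, against a median of 52.7% over all promoters.

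All 10 are protein-coding genes, and positions are those of GENCODE vM21 on GRCm38. Sfrp2 lies on the plus strand of chromosome 3 from 83766321 to 83774316, and Dkk2 lies farther along the same strand from 132085292 to 132180304. Lef1, from 131110471 to 131224356, is the neighbour of Dkk2 at a distance of 860935 bases with 4 protein-coding genes between them. Sfrp1 lies on chromosome 8 from 23411502 to 23449632, Frzb on chromosome 2 from 80411970 to 80447625, Dkk3 on chromosome 7 from 112116017 to 112159057 and Wif1 on chromosome 10 from 121033960 to 121100650. Wnt5a lies on chromosome 14 from 28504750 to 28527448, Axin2 on chromosome 11 from 108920349 to 108950783, and Tcf7 on the same chromosome from 52252371 to 52283014. Other annotated genes overlap exons of Sfrp2, Lef1, Tcf7, Axin2 and Wnt5a, on the opposite strand or, for 1 of those at Tcf7, on the same strand. Since no source used here states that counting used strand, reads of these overlapping genes cannot be told apart from those of the 5 genes.

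The 10 genes spanned a wide range of levels, and the antagonists Sfrp2, Dkk3 and Sfrp1 were the most abundant in untreated normal culture at 36 h. The highest and lowest of the 8 group means differed 32.6-fold for Sfrp2, 20.6-fold for Wif1, 6.46-fold for Dkk2, 4.59-fold for Sfrp1 and 3.79-fold for Dkk3. For Axin2, Frzb and Lef1 the ratios were 3.00, 2.98 and 2.97, and for Tcf7 1.90. Wnt5a, the only ligand of the group, varied least, with a ratio of 1.23 between group means of 13.1 and 16.1 FPKM. Sfrp1, Sfrp2, Frzb, Dkk3 and Tcf7 had their highest mean in untreated normal culture at 36 h, Dkk2 and Axin2 under IL-1β in normal culture at 36 h, and Wif1, Wnt5a and Lef1 in untreated normal culture at 72 h.

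**Figure D1:**
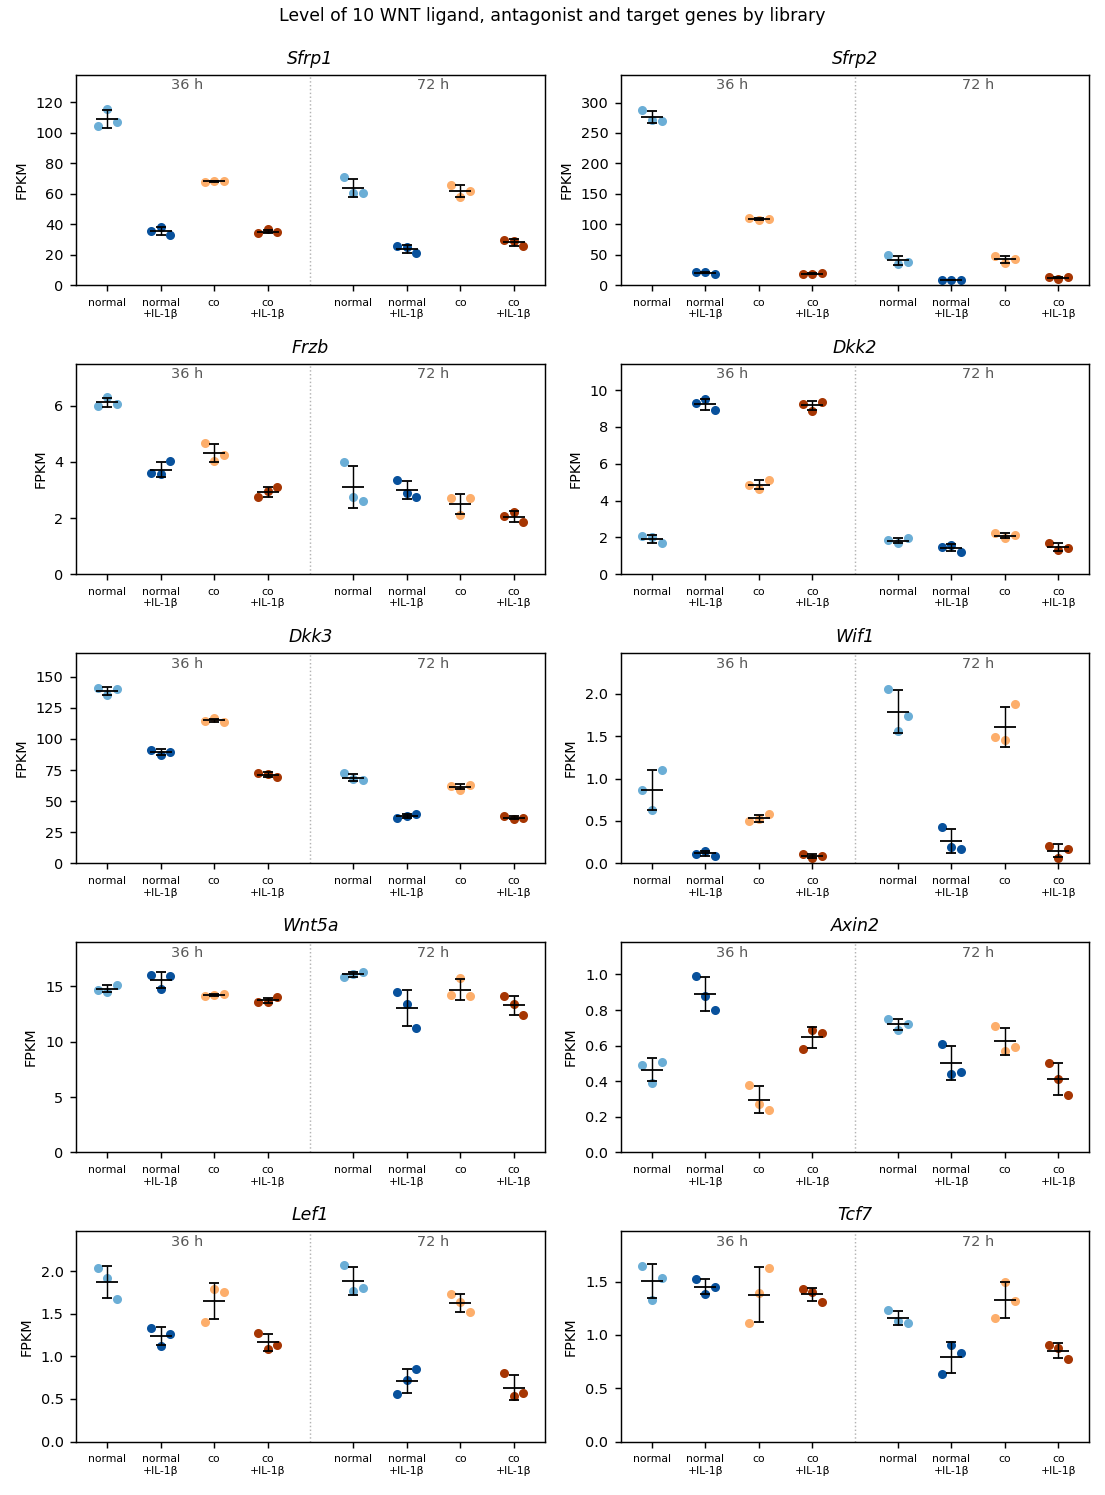
FPKM of each gene in the 24 libraries, 3 points per group, with the mean and SD in black, for normal culture and co-culture (co) without or with IL-1β at 36 h (left of the dotted line) and 72 h (right). Each panel has its own linear axis from 0. Sfrp2 is highest in untreated normal culture at 36 h, Dkk2 is high under IL-1β at 36 h and low at 72 h, and Wnt5a stays between 11.3 and 16.3 FPKM.

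IL-1β at 36 h lowered most of the secreted antagonists in normal culture and raised 1 of them, Dkk2. Sfrp2, which binds WNT ligands through a frizzled-like domain, stood at 287, 271 and 269 FPKM in the untreated libraries and at 21.2, 20.7 and 18.9 FPKM under IL-1β. Every treated library was far below every untreated one, a 13.6-fold lower mean, and Sfrp2 fell by 3.70 (SE 0.10) on the log2 scale (limma, adjusted p = 1.07e-18). Sfrp1, its close relative, stood at 104, 116 and 107 FPKM untreated and at 35.4, 37.9 and 33.1 FPKM under IL-1β, again with no overlap. Sfrp1 fell by 1.59 (SE 0.07, limma adjusted p = 2.37e-14). Dkk3 stood at 141, 135 and 140.49 FPKM untreated and at 91.4, 86.7 and 89.6 FPKM under IL-1β, a fall by 0.63 (SE 0.04). Frzb, at 6.0, 6.3 and 6.07 FPKM untreated and 3.59, 3.56 and 4.02 FPKM under IL-1β, fell by 0.59 (SE 0.10). Wif1 was near the detection floor of the table: it was listed at 0.87, 0.63 and 1.10 FPKM untreated and 0.11, 0.15 and 0.09 FPKM under IL-1β, and it fell by 0.73 (SE 0.09, limma adjusted p = 4.26e-07). With a pseudocount of 0.1 in place of 1 the fall of Wif1 was 2.14, since the constant weighs heavily on values this low.

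Dkk2, which blocks the LRP co-receptors, went the other way at 36 h. It stood at 2.09, 2.00 and 1.69 FPKM in untreated normal culture and at 9.29, 9.50 and 8.92 FPKM under IL-1β. The treated libraries were all above the untreated ones by a mean of 4.79-fold, and Dkk2 rose by 1.81 (SE 0.07) on the log2 scale (limma, adjusted p = 7.08e-16). Over the 9 tested genes, 1 rose and 6 fell in this comparison, where 67.5% of all tested genes passed, 25.9% higher and 41.5% lower. The median difference of the 9 was -0.59, against -0.09 over all tested genes. In these bulk libraries, fewer cells of a type and less RNA per cell cannot be told apart.

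Marker genes moved with IL-1β as well. The summed level of the 15 chondrocyte markers was 796 to 826 FPKM in untreated normal culture at 36 h and 304 to 322 FPKM under IL-1β. Of the 13 tested 12 fell, beside 41.5% lower over all tested genes. Among these 13, Ucma, Col11a2, Matn3 and Cnmd had group means up to 0.8767 FPKM under IL-1β and passed the filter through untreated libraries. Their place in this and the later IL-1β counts adds no support. The summed level of 10 dermal fibroblast markers, all of them tested, was 736 to 744 FPKM untreated and 1095 to 1149 FPKM under IL-1β, with 5 higher and 3 lower, in a culture that held no added fibroblasts. The 6 macrophage and leukocyte markers summed to 48.6 to 55.9 FPKM untreated and 68.1 to 78.3 FPKM under IL-1β, with 3 of 5 tested higher and 1 lower. The 6 skeletal muscle markers summed to 82.8 to 90.5 and 138 to 146 FPKM, with 3 of 6 higher and 1 lower. The 3 adipocyte markers summed to 2.85 to 4.35 FPKM untreated and 0.67 to 0.85 FPKM under IL-1β, and the 5 endothelial markers, none of which passed the filter, to 0.67 to 1.04 FPKM in the 6 libraries. Single genes made up much of several of these sums and of those given below. Mean Lum was 462 FPKM untreated and 868 FPKM under IL-1β, Lyz2 42.6 and 57.5 FPKM, and Acta1 54.8 and 106 FPKM. No marker of these lists was at 0 in every library. Their part in the changes of the WNT genes was not tested.

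In co-culture at 36 h, IL-1β again lowered 6 of the 9 tested genes and raised Dkk2, while 58.7% of all tested genes passed, 23.4% higher and 35.3% lower. Sfrp2 stood at 109.95, 108 and 108 FPKM in untreated co-culture and at 19.0, 18.1 and 19.0 FPKM with IL-1β, and fell by 2.48 (SE 0.10, limma adjusted p = 1.08e-15). Sfrp1 fell by 0.93 (SE 0.07), from 67.6, 68.3 and 68.3 FPKM to 34.3, 36.5 and 34.6 FPKM. Dkk2 rose by 0.80 (SE 0.07, limma adjusted p = 1.67e-09), from 4.82, 4.64 and 5.13 FPKM to 9.26, 8.88 and 9.38 FPKM. All 3 genes ended at levels under IL-1β that overlapped those of treated normal culture, from untreated levels that did not overlap. Dkk3, Frzb and Wif1 fell by 0.68 (SE 0.04), 0.44 (SE 0.10) and 0.50 (SE 0.09). With a pseudocount of 0.1 the fall of Wif1 was 1.77. Chondrocyte markers summed to 874 to 899.6 FPKM in untreated and 308 to 317 FPKM in treated co-culture, with 13 of 13 tested lower, and dermal fibroblast markers to 584 to 595 and 987 to 1005 FPKM, with 6 of 10 higher and 3 lower. Macrophage and leukocyte markers summed to 47.2 to 50.9 and 63.7 to 74.5 FPKM, with 3 of 5 higher and 1 lower, and skeletal muscle markers to 80.8 to 86.6 and 113 to 123 FPKM, with 3 of 6 higher and 2 lower. Their part in the changes of the WNT genes was not tested.

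At 72 h, IL-1β raised none of the 9 tested genes. In normal culture 8 fell, among 63.4% of all tested genes that passed (23.1% higher, 40.3% lower), and in co-culture 7 fell, among 49.1% (18.5% higher, 30.6% lower). By unadjusted p under 0.05, 8 genes differed in each culture, all of them lower, but no share over all tested genes was computed at this threshold. Sfrp2 stood at 48.7, 35.0 and 38.6 FPKM untreated and 8.55, 8.16 and 8.65 FPKM treated in normal culture, and fell by 2.13 (SE 0.10). In co-culture it stood at 48.1, 36.1 and 42.5 FPKM untreated and 13.2, 10.7 and 12.7 FPKM treated, and fell by 1.71 (SE 0.10). The treated libraries lay below the untreated ones in both cultures without overlap. Sfrp1 fell by 1.39 in normal culture and by 1.11 in co-culture (SE 0.07 each), and Dkk3 by 0.84 and 0.73 (SE 0.04 each).

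Dkk2 no longer stood high under IL-1β at 72 h. It was at 1.83, 1.69 and 1.94 FPKM untreated and 1.47, 1.59 and 1.23 FPKM treated in normal culture, where it fell by 0.22 (SE 0.07, limma adjusted p = 0.00935). Without the third treated library the fall was 0.16 with an adjusted p of 0.0673 by limma, and in a fit on the 6 compared libraries alone the adjusted p was 0.0656, or 0.0943 with the replicate block. In co-culture Dkk2 fell by 0.33 (SE 0.07, limma adjusted p = 0.000453), from 2.22, 1.94 and 2.11 to 1.69, 1.3 and 1.41 FPKM. Wif1, the antagonist that binds WNT through its own WIF domain, stood at 2.06, 1.56 and 1.74 FPKM untreated and 0.43, 0.19 and 0.17 FPKM treated in normal culture, and fell by 1.14 (SE 0.09). In co-culture it fell by 1.18 (SE 0.09), from 1.49, 1.45 and 1.88 to 0.21, 0.06 and 0.17 FPKM. With a pseudocount of 0.1 these differences of Wif1 were -2.44 and -2.84. Frzb did not pass in either culture at 72 h, with differences of -0.03 (95% interval -0.23 to 0.18) and -0.20 (-0.40 to 0.01). Rescaling each library to TPM gave a called fall of Frzb in co-culture, -0.31 with a limma adjusted p of 0.0334, and leaving out the second untreated co-culture library gave -0.28 with 0.0322.

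The median differences of the 9 genes at 72 h were -0.75 in normal culture and -0.69 in co-culture, beside -0.08 and -0.06 over all tested genes. The split over all genes depended on the scaling: in normal culture at 72 h 2809 were higher and 4909 lower, against 2005 and 6508 as TPM and 3622 and 3886 by median-of-ratios, and in co-culture 2249 and 3729, against 1719 and 5460 as TPM. None of the called WNT genes changed direction under these scalings. Chondrocyte markers summed to 1080 to 1152 FPKM in untreated and 295 to 303 FPKM in treated normal culture, and to 1052 to 1119 and 289 to 333 FPKM in co-culture, with 13 of 13 tested lower in both. Macrophage and leukocyte markers summed to 88.3 to 96.0 and 125 to 146 FPKM in normal culture and to 85.1 to 93.7 and 129 to 146 FPKM in co-culture, with 2 of 5 higher and 3 lower in both. Dermal fibroblast markers summed to 310 to 362 and 488 to 534 FPKM in normal culture, with 5 of 10 higher and 4 lower. Skeletal muscle markers summed to 19.6 to 22.0 and 42.2 to 47.7 FPKM there, with 6 of 6 higher. The part of these shifts in the WNT genes was not tested.

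Wnt5a, a ligand that signals mostly through ROR receptors without β-catenin, changed little under IL-1β. At 36 h it stood at 14.7, 14.5 and 15.1 FPKM untreated and at 16.0, 14.7 and 16.0 FPKM treated in normal culture, overlapping ranges with a difference of 0.07 (95% interval -0.06 to 0.20). The difference in co-culture at 36 h was -0.05 (-0.18 to 0.08). At 72 h in normal culture Wnt5a stood at 15.9, 16.1 and 16.3 FPKM untreated and at 14.5, 13.4 and 11.3 FPKM treated, below the untreated libraries in all 3, and fell by 0.29 (SE 0.06, limma adjusted p = 0.000473). In co-culture at 72 h the difference was -0.14 (SE 0.06, limma adjusted p = 0.0828), and it passed at -0.23 with 0.0291 after rescaling to TPM and at -0.18 with 0.0439 without the first treated library.

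The target genes Lef1 and Tcf7 encode DNA-binding partners of β-catenin and are themselves switched on by the pathway in many tissues. Lef1 stood at 2.04, 1.92 and 1.67 FPKM untreated and 1.33, 1.12 and 1.26 FPKM treated in normal culture at 36 h, and fell by 0.36 (SE 0.08, limma adjusted p = 0.000433). At 72 h it stood at 2.07, 1.77 and 1.80 FPKM untreated and 0.56, 0.72 and 0.85 FPKM treated, and fell by 0.75 (SE 0.08, limma adjusted p = 4.2e-08). In co-culture Lef1 fell by 0.29 at 36 h and by 0.69 at 72 h (SE 0.08 each), so treated libraries lay below untreated ones in every IL-1β comparison of this gene. Tcf7 overlapped between treated and untreated libraries at 36 h, with differences of -0.03 (95% interval -0.19 to 0.13) in normal culture and 0.01 (-0.16 to 0.17) in co-culture. At 72 h Tcf7 fell by 0.27 (SE 0.08, limma adjusted p = 0.00459) in normal culture, from 1.23, 1.13 and 1.11 to 0.63, 0.91 and 0.83 FPKM. In co-culture it fell by 0.33 (SE 0.08, limma adjusted p = 0.00149). With a pseudocount of 0.1 the differences at 72 h were -1.3 for Lef1 and -0.51 for Tcf7 in normal culture and -1.25 and -0.58 in co-culture, and those of Lef1 at 36 h were -0.56 and -0.46.

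Axin2, a scaffold of the complex that degrades β-catenin and a widely used readout of its activity, was below the filter and had values from 0.24 to 0.99 FPKM. In normal culture at 36 h it stood at 0.49, 0.39 and 0.51 FPKM untreated and at 0.99, 0.88 and 0.80 FPKM under IL-1β, and in co-culture at 0.38, 0.27 and 0.24 and at 0.58, 0.69 and 0.67 FPKM. The treated libraries were all above the untreated ones at 36 h. At 72 h the order was turned, with 0.75, 0.69 and 0.72 FPKM untreated and 0.61, 0.44 and 0.45 FPKM treated in normal culture, and 0.71, 0.57 and 0.59 against 0.50, 0.41 and 0.32 FPKM in co-culture. In a fit without the filter on low values, the IL-1β difference of Axin2 was 0.37 (SE 0.06, limma adjusted p = 1.31e-05) in normal culture and 0.35 (SE 0.06, 4.01e-05) in co-culture at 36 h, and -0.20 (SE 0.06) in both at 72 h, with adjusted p-values of 0.00599 and 0.00701. The difference between the 72 h and the 36 h effect in normal culture was -0.57 (SE 0.08, limma adjusted p = 1.69e-05 without the filter). Axin2 and Lef1 thus differed in direction at 36 h, at levels where a value of 1 FPKM or less rests on an unknown number of reads.

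**Figure D2:**
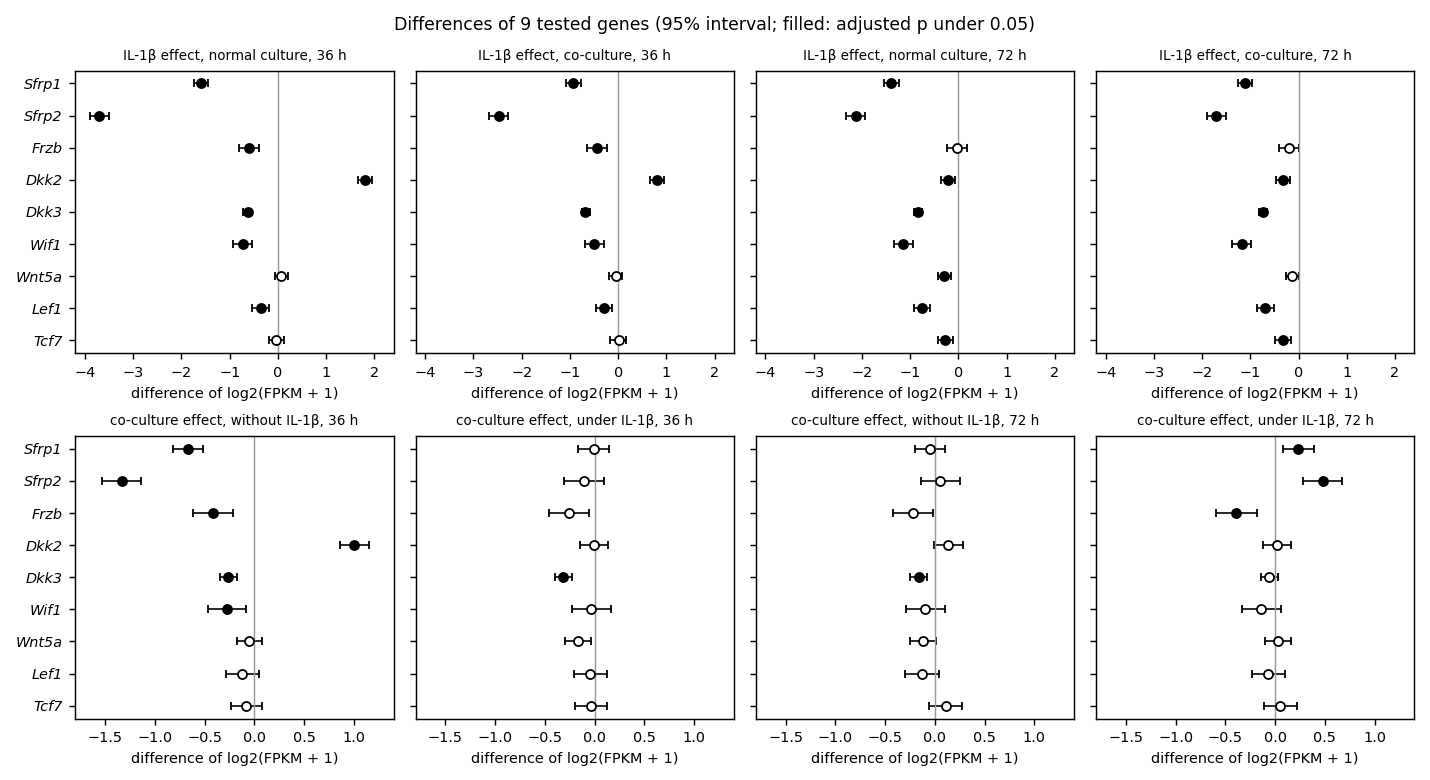
Differences of log2(FPKM + 1) for the 9 tested genes in the 4 comparisons of IL-1β with none (top) and the 4 comparisons of co-culture with normal culture (bottom), as points with 95% intervals. Filled points have an adjusted p under 0.05, and the rows have different horizontal axes. Sfrp2 has the lowest value in each top panel, and in the bottom row 6 of the 9 genes are filled in untreated cells at 36 h.

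Co-culture with dermal fibroblasts lowered Sfrp2, Sfrp1, Frzb, Dkk3 and Wif1 and raised Dkk2 in untreated cells at 36 h. Sfrp2 stood at 287, 271 and 269 FPKM in normal culture and at 109.95, 108 and 108 FPKM in co-culture, a 2.54-fold lower mean with no overlap. It fell by 1.33 (SE 0.10, limma adjusted p = 1.33e-09). Sfrp1 fell by 0.67 (SE 0.07, limma adjusted p = 1.09e-06), from 104, 116 and 107 FPKM to 67.6, 68.3 and 68.3 FPKM. Frzb fell by 0.42 (SE 0.10) and Dkk3 by 0.27 (SE 0.04), with no overlap between the cultures. Dkk2 rose by 1.00 (SE 0.07, limma adjusted p = 7.08e-10), from 2.09, 2.00 and 1.69 FPKM in normal culture to 4.82, 4.64 and 5.13 FPKM in co-culture. In all, 1 of the 9 genes rose and 5 fell, where 15.5% of all tested genes passed, 6.28% higher and 9.2% lower. The median of the 9 was -0.27, beside -0.03 over all tested genes. Over all genes 765 were higher and 1120 lower, against 894 and 762 by median-of-ratios scaling.

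The fifth gene to fall, Wif1, was a weak call. It was listed at 0.87, 0.63 and 1.10 FPKM in normal culture and at 0.50, 0.52 and 0.58 FPKM in co-culture, a fall by 0.28 (SE 0.09, limma adjusted p = 0.049). It did not pass with a pseudocount of 0.1 (adjusted p = 0.149), after rescaling to TPM (0.0546) or by median-of-ratios (0.0643), nor without any 1 of 5 of the 6 libraries, all except the second of normal culture (0.0798 to 0.253 by limma). Wnt5a, Lef1 and Tcf7 did not pass, with differences of -0.05 (95% interval -0.18 to 0.08), -0.12 (-0.29 to 0.05) and -0.08 (-0.24 to 0.08). Axin2 was listed lower in all 3 co-culture libraries, with a difference of -0.18 and a limma adjusted p of 0.0508 without the filter on low values.

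The comparison of co-culture with normal culture and that of IL-1β with none at 36 h share the untreated libraries of normal culture, so their values are set side by side only. For Sfrp2 they were -1.33 with co-culture and -3.70 with IL-1β, for Sfrp1 -0.67 and -1.59, for Frzb -0.42 and -0.59, for Dkk3 -0.27 and -0.63, and for Dkk2 1.00 and 1.81. In the same untreated co-cultures at 36 h, chondrocyte markers summed to 874 to 899.6 FPKM, with 3 of 13 tested higher and none lower than in normal culture, whereas they fell under IL-1β. Dermal fibroblast markers summed to 584 to 595 FPKM in co-culture, below the 736 to 744 FPKM of normal culture, with 1 of 10 higher and 4 lower. Mean Lum, the largest part of that sum, was 339.5 FPKM in co-culture and 461.9 FPKM in normal culture. Adipocyte markers summed to 1.27 to 1.85 FPKM in co-culture and 2.85 to 4.35 FPKM in normal culture, with the only tested one, Adipoq, lower. Mean Adipoq was 1.147 FPKM in co-culture and 2.57 FPKM in normal culture. It passed the filter through these untreated libraries, so its call adds no support. Over all tested genes 6.28% were higher and 9.2% lower in this comparison. Macrophage and leukocyte markers summed to 47.2 to 50.9 FPKM in co-culture and 48.6 to 55.9 FPKM in normal culture, and none of 5 passed. The part of the markers that moved was not tested.

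At 72 h, untreated co-culture and normal culture were close for most of these genes. Only Dkk3 passed, and fell by 0.16 (SE 0.04, limma adjusted p = 0.0303), from 72.6, 67.6 and 66.7 FPKM in normal culture to 62.5, 59.0 and 63.0 FPKM in co-culture. In this comparison 3.4% of all tested genes passed, 1.72% higher and 1.68% lower. By unadjusted p under 0.05, 2 of the 9 genes differed, with no share over all tested genes computed at this threshold. The call for Dkk3 was lost without any 1 of 5 of the 6 libraries, all except the third of normal culture (limma adjusted p = 0.0565 to 0.157). Sfrp2 stood at 48.7, 35.0 and 38.6 FPKM in normal culture and 48.1, 36.1 and 42.5 FPKM in co-culture, overlapping ranges with a difference of 0.05 (95% interval -0.14 to 0.25). The intervals for Sfrp1, -0.20 to 0.10, and Dkk2, -0.01 to 0.28, leave out differences of the size seen at 36 h. Whether the co-culture difference of untreated cells changed between 36 h and 72 h was not tested.

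Under IL-1β at 36 h, Dkk3 alone passed between the cultures, where 10.6% of all tested genes did, 6.38% higher and 4.17% lower. It stood at 91.4, 86.7 and 89.6 FPKM in normal culture and at 72.8, 71.8 and 69.6 FPKM in co-culture, with no overlap, and fell by 0.32 (SE 0.04, limma adjusted p = 2.3e-05). Sfrp2 differed by -0.11 (95% interval -0.31 to 0.09), Sfrp1 by -0.01 (-0.17 to 0.14) and Dkk2 by -0.01 (-0.15 to 0.13). In a fit on the 6 compared libraries alone, Frzb and Wnt5a also passed, at -0.26 and -0.17 with limma adjusted p-values of 0.0247 and 0.0385, so that 3 genes were called. Axin2 was listed at 0.99, 0.88 and 0.80 FPKM in normal culture and 0.58, 0.69 and 0.67 FPKM in co-culture, a difference of -0.20 (SE 0.06, limma adjusted p = 0.038 without the filter).

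Under IL-1β at 72 h, Sfrp2 and Sfrp1 were higher and Frzb lower in co-culture, where 12.5% of all tested genes passed, 7.22% higher and 5.26% lower. Sfrp2 stood at 8.55, 8.16 and 8.65 FPKM in normal culture and at 13.2, 10.7 and 12.7 FPKM in co-culture, and rose by 0.48 (SE 0.10, limma adjusted p = 0.00358). Sfrp1 stood at 25.4, 25.0 and 20.8 FPKM and at 29.4, 29.1 and 25.6 FPKM, and rose by 0.23 (SE 0.07, limma adjusted p = 0.0422). Frzb fell by 0.39 (SE 0.10, limma adjusted p = 0.0136), from 3.35, 2.88 and 2.75 to 2.09, 2.22 and 1.85 FPKM. The ranges did not overlap for any of the 3. Libraries with the same replicate number deviated together in this comparison, and with the replicate block in a fit on its 6 libraries the limma adjusted p-values were 0.0872, 0.109 and 0.108, so that no gene passed, as in the fit on these libraries without the block (0.253, 0.399 and 0.298), while a block over all 24 libraries kept the 3 calls. Frzb was lost without the first normal culture library (adjusted p = 0.0775), and Sfrp1 without the third of normal culture or the first or second of co-culture (0.157, at a difference of 0.15, then 0.140 and 0.146), without the filter on low values (0.0649), after rescaling to TPM (0.0872) or by median-of-ratios (0.0688), all by limma.

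The test of whether IL-1β acted differently in co-culture, the interaction, passed for 3 of the 9 genes at 36 h, 2 higher and 1 lower, where 6.96% of all tested genes passed, 4.73% higher and 2.23% lower. The difference of the IL-1β effects, co-culture minus normal culture, was 1.22 (SE 0.13, limma adjusted p = 1.09e-05) for Sfrp2, 0.66 (SE 0.11, adjusted p = 0.000465) for Sfrp1 and -1.01 (SE 0.10, adjusted p = 1.88e-06) for Dkk2. For each of these genes the response to IL-1β was smaller in co-culture, and the untreated levels of the cultures differed while the treated levels overlapped. The interaction did not pass for Dkk3, at -0.05 (95% interval -0.17 to 0.07), or Frzb, at 0.16 (-0.13 to 0.44). At 72 h, 0 of the 9 genes passed by limma, where 3.11% of all tested genes did. With an unadjusted p under 0.05, for which no share over all tested genes was computed, there were 2. These were Sfrp2, with 0.42 (SE 0.13, limma adjusted p = 0.08), and Sfrp1, with 0.28 (SE 0.11, adjusted p = 0.126). With a replicate block over all libraries Sfrp2 passed (limma adjusted p = 0.0364), and it also passed without the second untreated library of normal culture (0.0482) or the first of co-culture (0.0429), as did Sfrp1 without the third treated library of co-culture (0.0482).

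**Figure D3:**
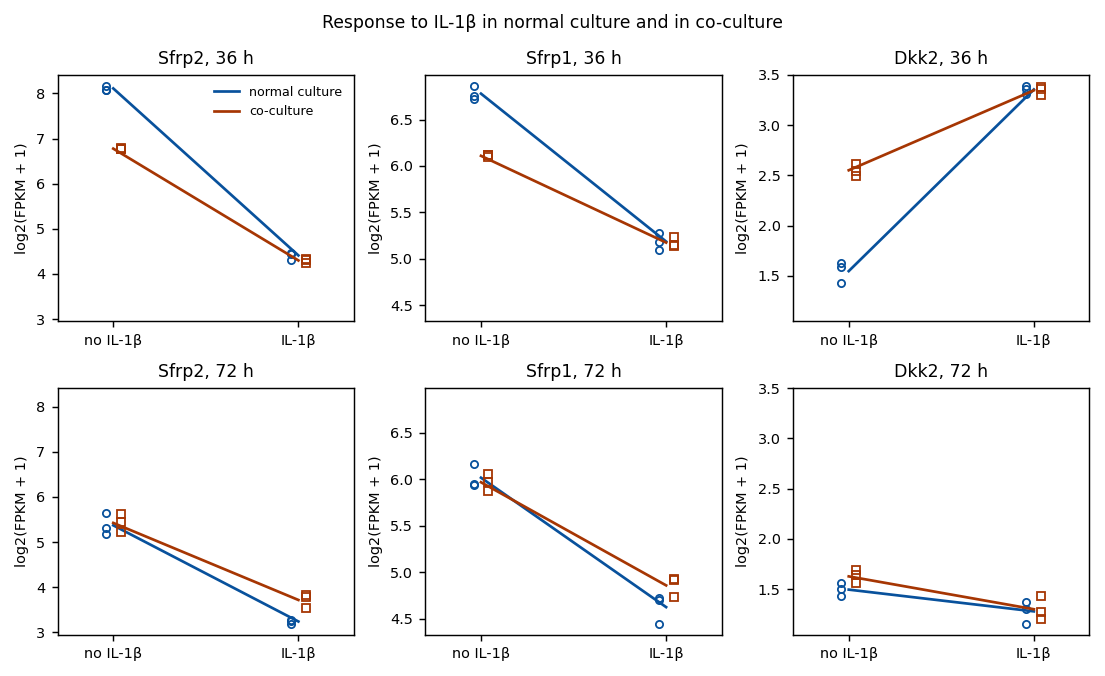
Levels of Sfrp2, Sfrp1 and Dkk2 as log2(FPKM + 1) in each library without and with IL-1β, for normal culture (circles) and co-culture (squares), with lines through the group means; 36 h is on top and 72 h below, on a shared axis per gene. At 36 h the cultures are apart without IL-1β and meet with IL-1β.

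The response to IL-1β in normal culture also differed between the times for 7 of the 9 genes, 2 higher at 72 h than at 36 h and 5 lower, where 45.4% of all tested genes passed, 23.7% higher and 21.6% lower. Over all genes 2891 were higher and 2636 lower, against 2366 and 2937 as TPM. For Dkk2 the difference was -2.03 (SE 0.10, limma adjusted p = 6.71e-13), a rise at 36 h against a slight fall at 72 h. For Sfrp2 it was 1.57 (SE 0.13, limma adjusted p = 5.77e-09) and for Frzb 0.57 (SE 0.14, adjusted p = 0.00196), both with smaller falls at 72 h. Lef1, Wnt5a, Dkk3 and Wif1 had lower values at 72 h, by -0.39, -0.36, -0.21 and -0.41. The last of these was lost with a pseudocount of 0.1 (-0.30, limma adjusted p = 0.531), after rescaling to TPM (0.0564) and without the second untreated library at 36 h (0.0563). Sfrp1 did not pass, at 0.20 (95% interval -0.02 to 0.42), but did at 0.27 without the first untreated library at 72 h (limma adjusted p = 0.0373) and at 0.29 without the third treated one (0.02), and Tcf7, at -0.24, did at -0.29 without the second treated library at 72 h (0.0462).
The co-culture difference under IL-1β was higher at 72 h than at 36 h for Sfrp2, by 0.59 (SE 0.13, limma adjusted p = 0.0185), and for Dkk3, by 0.26 (SE 0.06, adjusted p = 0.0147), where 2.6% of all tested genes passed, 1.08% higher and 1.52% lower. The call for Dkk3 was lost in fits on the 4 groups involved, without or with the replicate block (limma adjusted p = 0.137 and 0.167). That for Sfrp2 was lost without the first treated library of normal culture at 36 h or of co-culture at 72 h (0.0569 and 0.0611).

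Between 36 h and 72 h Sfrp2, Dkk3 and Frzb fell in untreated cells of both cultures and Wif1 rose in both, while Sfrp1 passed only the test in normal culture and Dkk2 only that in co-culture; whether the cultures differed in this was not tested. In untreated normal culture Sfrp2 fell by 2.74 (SE 0.10, limma adjusted p = 2.74e-16), a 6.76-fold lower mean, Dkk3 by 1.00 (SE 0.04), Frzb by 0.81 (SE 0.10) and Sfrp1 by 0.76 (SE 0.07). Wif1 rose by 0.58 (SE 0.09, limma adjusted p = 1.59e-05), a 2.06-fold higher mean, and by 0.99 with a pseudocount of 0.1. Tcf7 fell by 0.21 (SE 0.08, limma adjusted p = 0.0237), a call lost without the first or the third library at 36 h or the second or the third at 72 h (0.0606 to 0.105). Wnt5a differed by 0.11 (limma adjusted p = 0.127), and passed in fits on the compared groups without and with the replicate block (0.0261 and 0.0367). In all, 1 gene rose and 5 fell, where 58.4% of all tested genes passed, 33.1% higher and 25.3% lower. In untreated co-culture 1 rose and 4 fell, where 61.5% passed, 36.6% higher and 24.9% lower. There Wif1 rose by 0.76 (SE 0.09), or 1.42 with a pseudocount of 0.1, and Sfrp2, Dkk2, Dkk3 and Frzb fell by 1.35, 0.92, 0.89 and 0.61. Sfrp1 differed by -0.14 (limma adjusted p = 0.104), and passed by median-of-ratios scaling (-0.18, adjusted p = 0.0394) and in the fit on the compared groups (0.0128).

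Under IL-1β, 8 of the 9 genes were lower at 72 h in normal culture, where 69.1% of all tested genes passed and 32% were lower, and 7 in co-culture, where 64.3% passed and 28.9% were lower. Dkk2 changed most, by -2.08 (SE 0.07, limma adjusted p = 5.68e-16) in normal culture and by -2.05 (SE 0.07, adjusted p = 1.39e-15) in co-culture, with means 6.46-fold and 6.25-fold lower. The call for Frzb in normal culture, -0.24 with a limma adjusted p of 0.0306, was lost without the third library at 36 h or the second or the third at 72 h (0.0799 to 0.115). Wnt5a fell by 0.24 in normal culture (SE 0.06, limma adjusted p = 0.00194), and by 0.15 without the third library at 72 h. Marker levels also moved with time: in untreated normal culture the summed dermal fibroblast markers went from 736 to 744 FPKM at 36 h to 310 to 362 FPKM at 72 h, with 6 of 10 lower and 2 higher, and the 6 skeletal muscle markers from 82.8 to 90.5 to 19.6 to 22.0 FPKM, all of them lower. Among single markers, mean Lum went from 462 to 104 FPKM and mean Col2a1 from 302 to 765 FPKM. Chondrocyte markers summed to 796 to 826 FPKM at 36 h and 1080 to 1152 FPKM at 72 h, with 4 of 13 higher and 5 lower. Over all tested genes, 33.1% were higher and 25.3% lower at 72 h in untreated normal culture. The part of the markers in the changes was not tested.

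Added up, the 6 antagonists held 532 ± 7.93 FPKM (SD, n = 3) in untreated normal culture at 36 h, 301 ± 0.813 in untreated co-culture, 158 ± 3.25 in treated normal culture and 137 ± 1.42 in treated co-culture. At 72 h the sums were 180.4 ± 17.1, 171.6 ± 12.3, 74.9 ± 1.70 and 80.5 ± 3.25 FPKM in the same order. The ranges of the untreated cultures did not overlap at 36 h and did at 72 h. Sfrp2 made up 51.8% ± 1.11 of the sum in untreated normal culture at 36 h and 12.8% ± 0.527 under IL-1β, where Dkk3 made up 56.5% ± 1.65. Per unit of Wnt5a, the sum was 36.0 ± 1.17 in untreated normal culture at 36 h, 21.1 ± 0.199 in untreated co-culture, 10.2 ± 0.550 under IL-1β in normal culture and 5.79 ± 0.623 in treated normal culture at 72 h. These sums describe RNA, and the antagonists differ in what they bind.

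**Figure D4:**
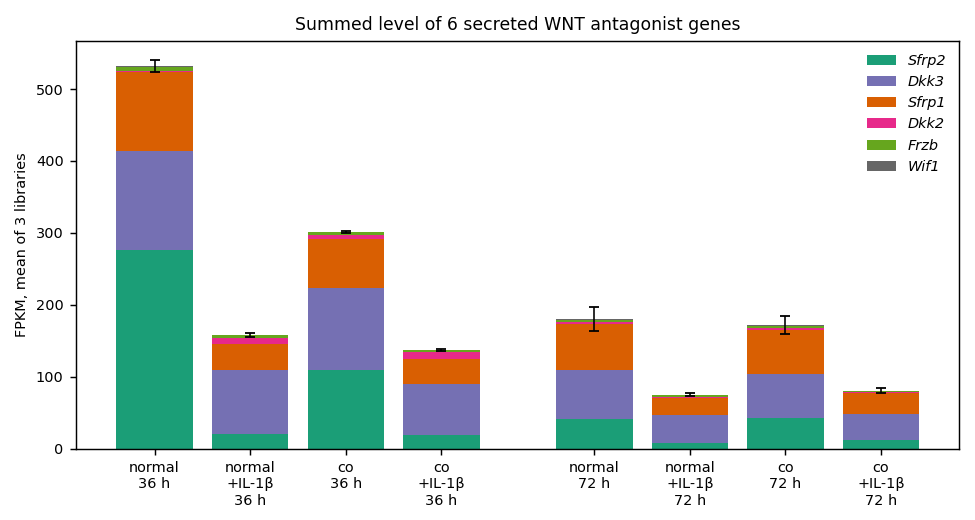
Mean FPKM of the 6 secreted antagonists stacked by gene in each of the 8 groups (co, co-culture), with the SD of the summed level over 3 libraries as error bar. The sum is 532 FPKM in untreated normal culture at 36 h and 74.9 FPKM in treated normal culture at 72 h, and Sfrp2 accounts for most of the fall under IL-1β at 36 h.

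The rest of the pathway was followed through 99 other genes in 7 lists, of which 90 were in the table and 71 were tested. Under IL-1β in normal culture at 36 h, 19 of the 71 rose and 36 fell, where 25.9% of all tested genes were higher and 41.5% lower, with a median of -0.16 beside -0.09 over all tested genes. At 72 h 12 rose and 37 fell, where 23.1% of all tested genes were higher and 40.3% lower. In untreated co-culture at 36 h 4 rose and 20 fell, where 6.28% were higher and 9.2% lower, with a median of -0.07 beside -0.03. At 72 h 1 rose and 4 fell, where 1.72% were higher and 1.68% lower. Under IL-1β, 1 was higher and 2 lower in co-culture at 36 h (6.38% and 4.17% of all tested genes), and 4 higher and 3 lower at 72 h (7.22% and 5.26%).

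Among 6 tested WNT ligands other than Wnt5a, 4 rose and 1 fell with IL-1β in normal culture at 36 h, where 25.9% of all tested genes were higher and 41.5% lower. Wnt11 rose by 1.02 (SE 0.10), from 1.75 ± 0.177 to 4.58 ± 0.433 FPKM (SD, n = 3), and Wnt16, a ligand of joint tissues, fell by 1.38 (SE 0.13), from 5.29 ± 0.770 to 1.41 ± 0.275 FPKM. Wnt5a, at 14.8 FPKM, was above both. Neither passed between the cultures in any of the 4 co-culture comparisons. Wnt10a, among the 6, stood at only 0.0967 FPKM untreated and 0.320 FPKM treated in normal culture at 36 h. It passed the filter through untreated libraries at 72 h, so its place in the IL-1β counts adds no support. In normal culture at 72 h, 2 of the 6 rose and 2 fell with IL-1β, beside 23.1% higher and 40.3% lower over all tested genes. Of 2 other tested antagonists, 1 rose and 1 fell with IL-1β in normal culture at 36 h, beside 25.9% and 41.5% of all tested genes. Both were lower in untreated co-culture at 36 h, beside 9.2% of all tested genes. Mean Sfrp4 was 2.203 FPKM in untreated normal culture at 36 h, 0.99 FPKM under IL-1β and 1.443 FPKM in untreated co-culture. Draxin binds LRP6, as Dkk2 does. At 36 h Draxin rose with IL-1β by 0.59 (SE 0.10) in normal culture and by 1.23 (SE 0.10) in co-culture. It was lower in untreated co-culture at 36 h by 0.79 (SE 0.10, limma adjusted p = 3.84e-06), with 1.26 ± 0.137 FPKM against 2.91 ± 0.254 FPKM (SD, n = 3) in normal culture, so that it moved in opposite directions with co-culture and with IL-1β, unlike Dkk2.

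Of 19 tested receptors and co-receptors, 5 rose and 11 fell with IL-1β in normal culture at 36 h, beside 25.9% higher and 41.5% lower over all tested genes. In untreated co-culture at 36 h 1 rose and 11 fell, beside 6.28% higher and 9.2% lower. Fzd9 and Fzd6, frizzled receptors, fell with IL-1β by 1.67 (SE 0.09) and 1.24 (SE 0.08). Mean Fzd9 was 3.133 FPKM in untreated normal culture at 36 h, but its group means under IL-1β reached only 0.3433 FPKM. Fzd9 thus passed the filter through untreated libraries. Its IL-1β difference and its place in the IL-1β counts describe these libraries without adding support. In untreated co-culture at 36 h Fzd9 fell by 0.62 (SE 0.09) while Fzd6 rose by 0.27 (SE 0.08). The R-spondin receptors Lgr4 and Lgr6 moved apart under IL-1β at 36 h, with a fall by 0.84 (SE 0.07) for Lgr4 and a rise by 1.93 (SE 0.09) for Lgr6, from 0.213 ± 0.0569 to 3.62 ± 0.320 FPKM (SD, n = 3). Of 25 tested transducers 5 rose and 12 fell with IL-1β, beside the same 25.9% and 41.5%, among those that fell Tcf7l1, a relative of Tcf7 that often represses targets, by 1.06 (SE 0.06). Apc2, among these 25, did not exceed 1.07 FPKM in any library and had its highest group mean, 1.027 FPKM, in treated co-culture at 36 h. Its place in the counts adds no support. Of 9 tested feedback and target genes other than the 3 above, 3 rose and 5 fell, beside the same 25.9% and 41.5%. Lgr5 fell by 1.45 (SE 0.07), as Lef1 fell, and Nkd2, an inhibitor of dishevelled, rose by 1.21 (SE 0.06), as did the listed level of Axin2. All 4 tested genes of WNT secretion and potentiation fell with IL-1β at 36 h in both cultures. Over all tested genes 41.5% were lower in normal culture and 35.3% in co-culture. At 72 h 2 of the 4 were lower in each culture, beside 40.3% and 30.6%, and 1 was higher in normal culture. None of these 4 nor of 6 tested planar polarity genes changed by 1 or more on the log2 scale in the IL-1β and co-culture comparisons.

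The genes whose profiles over the 8 group means were most like each of the 9 were found by the root-mean-square difference of centred log2(FPKM + 1) among 9216 or 9217 genes with at least 5 FPKM in 1 group. Sfrp2, whose profile spans 4.87 log2 units, was nearest to Scara5 (0.25), Scrg1 (0.26) and Chl1 (0.27). Scara5 stood at 20.1 FPKM in untreated normal culture, 9.69 FPKM in untreated co-culture and 0.51 FPKM under IL-1β at 36 h. Dkk2 had no close partner: the nearest genes were Cyp2d22 (0.29), Mogat2 (0.29) and Tlcd2 (0.31), over a span of 2.08. Mogat2 stood at 2.14, 4.12 and 9.01 FPKM in the same 3 groups, beside 1.93, 4.86 and 9.24 FPKM for Dkk2, but remained at 2.57 FPKM under IL-1β at 72 h, beside 1.43 FPKM. Sfrp1 was nearest to Sparcl1, Eya4 and Nrk, Dkk3 to Gulp1, Slc40a1 and Irgm2, Frzb to Retreg1, Igfbp4 and Rtl8b, and Wif1 to Unc5c, Lhx9 and Ctnnal1. Lef1 was nearest to Plekhh2, Stxbp5 and Arsb, Tcf7 to Pdlim2, Ptprf and Rmnd5a, and Wnt5a to Zfp317, Xpr1 and Arih1. Axin2 was not searched, and Wif1, Axin2, Lef1 and Tcf7 did not reach 5 FPKM in any group and so could not be named as the nearest of another gene.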

How the data were processed

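The authors deposited 1 table of FPKM values rounded to 2 decimals, 1 column per library and 17094 genes, on genome build GRCm38 per the submitters' processing notes. The aligner, counting tool and annotation are not given in the sources used here, and FPKM are relative to each library's total, so a large rise of some genes lowers the values of others. Values were fitted as log2(FPKM + 1) with limma 3.58.1 in R 4.3.3 (trended prior, 8 group means, 24 libraries, 16 residual degrees of freedom, Benjamini-Hochberg adjustment, threshold 0.05) on genes with at least 1 FPKM in at least 3 libraries. The method was tested on simulated data. The 10 genes, the lists and the tests were chosen with earlier results of these data known. Named pathway genes were up to 4 per list, those with the largest change of at least 1. Depth could not be recovered: 22.5% of 7515 low values lay within 0.1 of a whole multiple of a step, where even spread gives 20%. The replicate numbers of the labels pair libraries for co-culture under IL-1β at 72 h, where same-numbered libraries deviated together (r = 0.364, 0.179 and 0.577 across genes), and for none of the other pairs of groups compared. Alternatives were another pseudocount, other filters, TPM, median-of-ratios scaling, fits on the compared groups, a replicate block and leaving out each library.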

Additional observations from a re-analysis of the deposited data

Results flagged for a closer look

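In normal culture and co-culture the effect of IL-1β at 36 h differed by limma's test of the difference itself for Sfrp2 (1.22 on the log2 scale), Sfrp1 (0.66) and Dkk2 (-1.01). The effect of IL-1β in normal culture differed between 72 h and 36 h for Sfrp2 (1.57), Frzb (0.57), Dkk2 (-2.03), Lef1 (-0.39), Wif1 (-0.41), Wnt5a (-0.36) and Dkk3 (-0.21). The co-culture difference under IL-1β differed between these times for Sfrp2 (0.59) and Dkk3 (0.26). The values of Wif1 and Lef1 did not exceed 2.06 and 2.07 FPKM in any library, a low range where rounding to 2 decimals and the pseudocount weigh most.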

How the results depend on the processing

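Of 144 results, 9 genes in 16 comparisons, 78 were called, and of 2162 alternative values 2096 kept direction and call, 45 lost the call, 21 gained it and 0 changed direction with a call. With a filter at 5 FPKM the number called for IL-1β at 72 h went from 8 to 5 in normal culture and from 7 to 4 in co-culture, because Wif1, Lef1 and Tcf7 were then not tested. In fits on the compared groups only, without and with the replicate block alike, the number called for co-culture under IL-1β went from 1 to 3 at 36 h and from 3 to 0 at 72 h, and for the difference between these times from 2 to 1, and the cause was not tested. A replicate block over all libraries raised the number called for the interaction at 72 h from 0 to 1, also with the cause not tested, and lost no call. In fits on the compared groups the block also ended the calls for Wnt5a and Frzb between the times in treated normal culture (limma adjusted p = 0.0545 and 0.0697), and the block changed no call beyond these and those given with the results. Over all genes, higher and lower calls under TPM and median-of-ratios scaling were 159 and 270 and 253 and 154 for untreated co-culture at 72 h (210 and 204 as fitted), and 185 and 97 and 110 and 262 for the interaction at 72 h (205 and 174). By median-of-ratios they were 661 and 850 for co-culture under IL-1β at 72 h (879 and 641), and 99 and 264 for its change with time (132 and 185). Leaving out 1 library gave 0 to 1 genes for untreated co-culture at 72 h, 0 to 1 for the interaction at 72 h and 1 to 2 for the change with time of the co-culture difference in treated cells. Rescaling to TPM divides each library by its own FPKM total and raises every value against the pseudocount. In normal culture at 72 h these totals were 438824 to 443681 untreated and 465482 to 506621 under IL-1β. The median of all tested genes for this IL-1β comparison moved from -0.08 to -0.20 as TPM, and no called gene changed direction. Depth is unknown, which limits Wif1, Axin2, Lef1 and Tcf7 most.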

Other observations

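Genes of WNT secretion and potentiation were lower at 72 h than at 36 h in all 4 conditions, 4 of 4 tested each time, with median differences of -1.23 in untreated normal culture, -1.13 in untreated co-culture, -0.83 in treated normal culture and -0.73 in treated co-culture (limma, Benjamini-Hochberg), beside 0.03, 0.05, 0.02 and 0.02 over all tested genes. Over all tested genes 25.3%, 24.9%, 32% and 28.9% were lower in the same order. These comparisons were described after their values were seen. Rspo2, an R-spondin that strengthens WNT signals by shielding receptors from turnover, stood at 28.9 ± 0.233 FPKM (SD, n = 3) at 36 h and 11.6 ± 0.976 FPKM at 72 h in untreated normal culture, and Rspo3 at 28.1 ± 0.665 and 10.7 ± 0.912 FPKM. Wls, the carrier of WNT ligands to the cell surface, stood at 155 ± 6.96 and 116 ± 0.990 FPKM.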
